A study of Homo sapiens with 12 samples.

Results

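The genes described here are the SLC25 mitochondrial carriers, taken as every gene with a symbol of SLC25A followed by a number in the list of m6A peaks of control cells, in the list of FTO knockdown cells or in the table of peaks that differed between them. The rule found 37 genes among the 18329 gene symbols of those 3 tables, out of 48 such symbols in the gene name table. Of these, 36 had a peak in the control list, 29 in the knockdown list and 28 in both, and 14 had at least 1 differential peak.

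The series measured N6-methyladenosine (m6A), a methyl mark on adenosines within mRNA, in HGC27, an established human gastric carcinoma cell line. All groups were this line: controls (genotype WT, titled Con) and cells with a short hairpin against FTO (titled sh and FTO-KO, and called knockdown in the extraction protocol), with no drug and no time course in the labels. The titles do not say whether the controls carried a hairpin, nor how many hairpins or clones were used. Poly(A) RNA was fragmented and sequenced before (input) and after (IP) pull-down with an m6A antibody, in 3 libraries of each kind per condition and 12 in all. No label calls these separate cultures, so the p-values for expression rest on a spread that may be purely technical. The authors' p-values for peaks and differential peaks come without values per IP library. Whether those use any spread between libraries is not known here.

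Carriers of this family sit mostly in the inner mitochondrial membrane and exchange ADP for ATP, phosphate, keto acids, amino acids, cofactors and metal ions between cytosol and matrix. They are encoded in the nucleus and imported through the outer membrane pore and the small Tim chaperones. FTO is a demethylase that removes the methyl group of m6A, and also that of m6Am, a similar mark beside the mRNA cap that m6A antibodies bind too.

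Expression was read from FPKM (fragments scaled to transcript length and to library size) of the 6 input libraries, held for the 6396 genes that had a differential peak, so a carrier without one has no expression value here. FTO itself stood at 5.48, 5.68 and 5.52 FPKM in the control libraries and at 0.786, 0.830 and 0.765 FPKM after knockdown, a 7.00-fold lower mean (limma, Benjamini-Hochberg adjusted p = 4.99e-07). Libraries of 1 group correlated at r = 0.988 to 0.992 across genes on the log2 scale, and libraries of different groups at r = 0.958 to 0.969. Of 11 gastric and epithelial markers only MUC1 had values (1.24 ± 0.0415 FPKM in controls and 1.43 ± 0.219 after knockdown, SD, n = 3), and of 5 immune markers none did, so the cell type could be checked only in part; any bearing of these markers on the carriers was not tested. Among the mesenchymal markers COL1A1 stood at 169 ± 5.72 FPKM in controls and 147 ± 8.10 after knockdown, and THY1 at 12.5 ± 0.606 and 15.0 ± 0.515 FPKM (SD, n = 3).

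The carriers held 64 m6A peaks in the control list and 54 in the knockdown list. Each list is 1 set of peaks per condition, with the authors' own fold enrichment of IP over input, so there is no replicate spread and no test between lists. Carrier peaks lay mostly in 3′ UTRs: 44 of 64 in the control list (68.8%, exact binomial 95% interval 55.9 to 79.8%) against 47.6% of all 39492 control peaks, and 32 of 54 in the knockdown list (59.3%, interval 45.0 to 72.4%) against 46.5% of all 28888. Exonic peaks outside the UTRs made up 17.2% and 20.4% of carrier peaks, against 39.8% and 39.6% of all peaks. Of peaks called on the carrier itself, 67.3% (33 of 49) and 55.0% (22 of 40) lay in 3′ UTRs. The interval of the latter, 38.5 to 70.7%, covers the share of all knockdown peaks. The sets also differ in transcript type: 45.3% of carrier peaks in the control list were on protein-coding transcripts, against 33.4% of all. Any bearing of this on the places was not tested. Peaks on 1 gene are not independent, so these intervals cover counting error only. The median enrichment of carrier peaks was 5.64-fold in the control list, where all peaks had 6.11-fold, and 5.03-fold in the knockdown list, where all peaks had 7.05-fold.

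By at least 1 shared exonic base, 43 of 64 carrier peaks of the control list (67.2%) overlapped a knockdown peak, against 57.9% of all control peaks. In the other direction 47 of 54 knockdown peaks (87.0%) overlapped a control peak, against 88.8% of all knockdown peaks. In all, 8 carriers appeared in the control list only: SLC25A12, SLC25A16, SLC25A18, SLC25A27, SLC25A41, SLC25A46, SLC25A47 and SLC25A48. SLC25A39 alone was in the knockdown list only. Over all genes the control list was also the longer one, with 17466 genes against 13692, out of 18274 with a peak in either list.

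**Figure D1:**
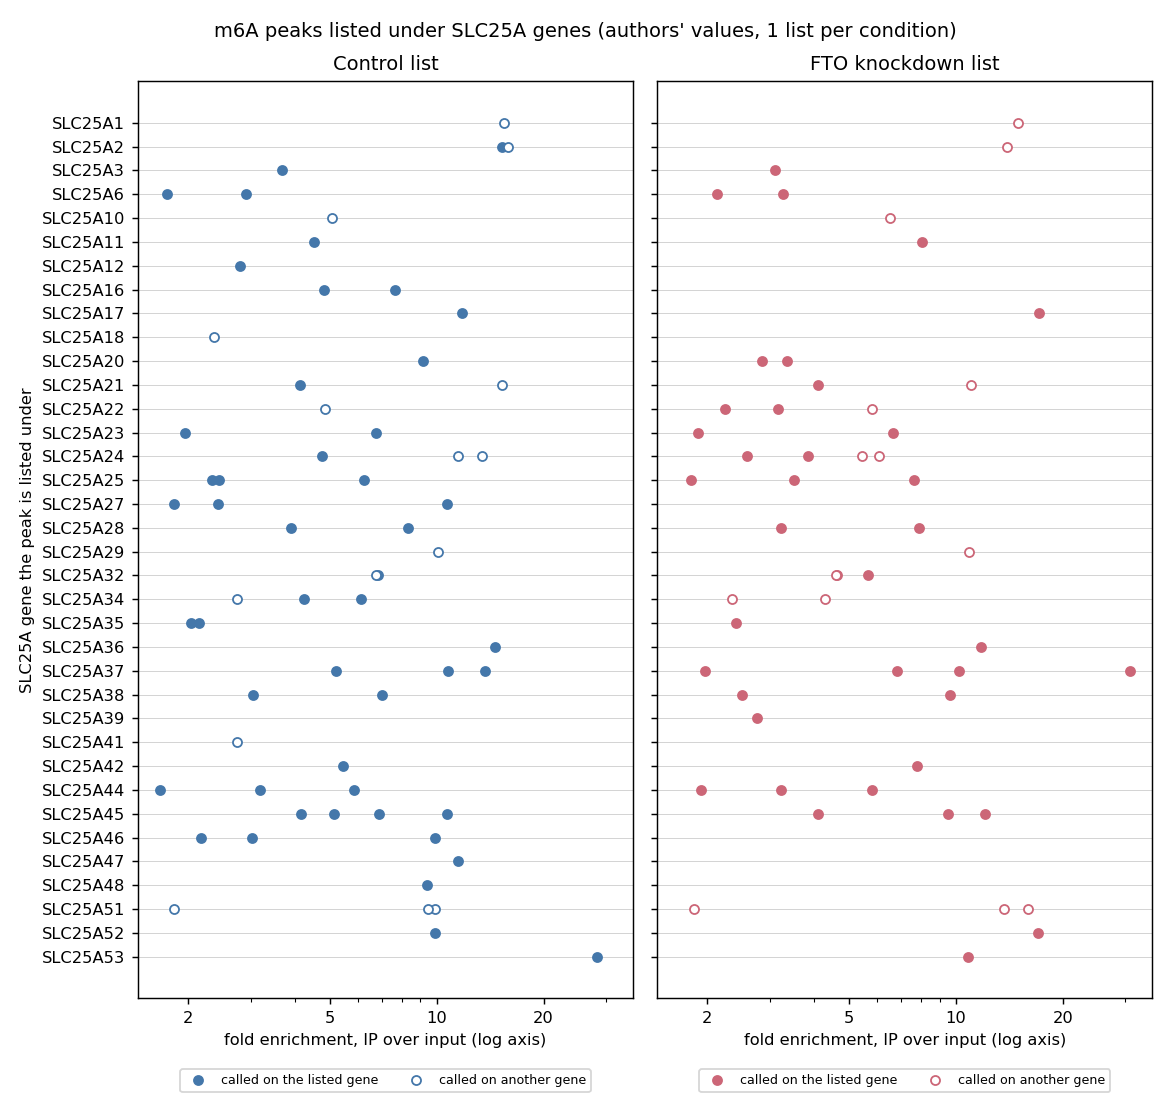
Fold enrichment (IP over input, log axis, the authors' values) of the m6A peaks listed under 36 of the 37 carriers, with the control list on the left and the knockdown list on the right; each point is 1 peak, filled where the peak was called on the carrier itself and open where it was called on another gene. Control peaks run from 1.67 to 28.3-fold and knockdown peaks from 1.80 to 30.9-fold, and 8 carriers have points on the left only.

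Carriers of ADP, ATP and phosphate are the most abundant of the family in most tissues. SLC25A3, the phosphate carrier, had 1 3′ UTR peak in each list, with an enrichment of 3.67-fold in controls and 3.09-fold after knockdown. SLC25A6, an ADP/ATP translocase, had a 3′ UTR peak (2.91-fold and 3.27-fold) and an exonic peak (1.74-fold and 2.13-fold). All 3 of these peaks were found in both lists, below the median enrichment of carrier peaks, and neither gene had a differential peak. The translocases SLC25A4, SLC25A5 and SLC25A31 had no peak listed under them or called on them.

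Of the iron and glutathione carriers, SLC25A37 (mitoferrin-1, which brings iron to the matrix) had the highest knockdown peak listed under a carrier. That 3′ UTR peak, at chr8:23568931-23572229, had an enrichment of 13.7-fold in controls and 30.9-fold after knockdown. Other SLC25A37 peaks of the 3′ UTR stood at 10.8 and 5.21-fold in controls and at 10.2 and 6.83-fold after knockdown. SLC25A28 (mitoferrin-2) had peaks of 8.32 and 3.90-fold in controls and of 7.87 and 3.23-fold after knockdown, which are not matched pairs. Both knockdown peaks overlapped the 8.32-fold control peak, and the 3.90-fold control peak overlapped none. No row of the authors' deposited table named either mitoferrin, so the unequal enrichments at SLC25A37 stand without a call. SLC25A39, needed for glutathione import into mitochondria, had 1 peak, in the 5′ UTR after knockdown (2.75-fold). SLC25A40, its close relative, had none.

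The highest enrichments among peaks listed under carriers were otherwise found at SLC25A53, with no settled substrate (an exonic peak, 28.3-fold in controls and 10.8-fold after knockdown), and SLC25A2 and SLC25A1 in the control list (15.9 and 15.5-fold). In the knockdown list they were found at SLC25A17, the peroxisomal cofactor carrier (17.1-fold, against 11.8-fold in controls), and SLC25A52, a near copy of the NAD carrier SLC25A51 with which it may share reads (17-fold, against 9.93-fold). By the authors' peak calling, the SLC25A52 peaks had a log10 adjusted p of only −3.63 after knockdown and −1.69 in controls. They covered 178 and 943 exonic bases. The listed values at SLC25A2 and SLC25A1 come from peaks called on TAF7 and CLTCL1, neighbouring genes. Peaks called on a carrier but listed under another gene are left out of this ranking. The highest of those was called on SLC25A29, with 27.2-fold enrichment in controls and 37.2-fold after knockdown.

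Each peak carries a listed gene, with a distance to its start, and in its name a gene identifier read here as the gene the peak was called on. These differed for 15 of 64 carrier peaks in the control list and for 14 of 54 in the knockdown list. The named gene matched the listed one for 76.6% and 74.1% of carrier peaks, against 77.4% and 78.3% of all peaks. Over both lists, 29 carrier peaks were called on another gene, and for 19 of them that gene had a RefSeq span (GRCh38.p14). All 19 touched the span of the gene they were called on, while 11 of 29 touched the carrier's. For 6 carriers every listed peak was called on another gene: SLC25A1 (CLTCL1), SLC25A10 (AC139530), SLC25A18 (CECR2), SLC25A29 (AL157871), SLC25A41 (SLC25A23) and SLC25A51 (SHB). In the other direction, 5 carriers outside the 37 had peaks called on them that were listed under neighbours: SLC25A15, SLC25A26, SLC25A30, SLC25A33 and SLC25A43.

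SLC25A29, a carrier of basic amino acids, and SLC25A51, the mitochondrial NAD carrier, show what the listing changes. SLC25A29 had a 3′ UTR peak called on it at chr14:100291115-100293000, with 27.2-fold enrichment in controls and 37.2-fold after knockdown, that was listed under AL157871, a gene of the opposite strand. The peak listed under SLC25A29 was called on AL157871 and overlaps the same stretch. SLC25A51 had a 3′ UTR peak called on it with 12.1-fold enrichment in controls and 10.6-fold after knockdown, listed under the pseudogene TMX2P1. All 3 peaks listed under SLC25A51 in each list lay in the 3′ UTR of SHB instead.

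The authors' deposited table of differential peaks gave 17 rows for 14 carriers, and 23 carriers had none. Signs below are knockdown minus control: the deposited log2 values are control over knockdown and were turned. Over 4066 rows with 1 peak in each list, the turned sign matched that of the listed enrichments in 92.6%. Carriers had a differential row in 37.8% of cases (14 of 37), close to the 34.3% of all genes with a peak. Of the carrier rows 11 of 17 (64.7%) were higher after knockdown, against 55.4% of all 8687 rows. By gene, 10 carriers had higher m6A and 4 lower. The median log2 of carrier rows was 0.29 and of all rows 0.28, and the median size regardless of sign was 0.66 and 0.69.

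The 3 amino acid carriers with a differential row listed under them stood higher, where 55.4% of all rows did. A row at a peak called on SLC25A15, another amino acid carrier, and listed under MIR621 was lower in the authors' deposited table (−0.76). In the authors' deposited table SLC25A22, a mitochondrial glutamate carrier, had a log2 difference of 1.39 at chr11:796042-796252 (5′ UTR, adjusted p = 0.000229). For SLC25A44, a carrier of branched-chain amino acids, the authors' deposited table gave 1.05 at chr1:156199474-156199684 (exon, adjusted p = 0.00257), where the enrichment was 1.67-fold in controls and 3.22-fold after knockdown. SLC25A29 had 0.68 in the authors' deposited table (adjusted p = 7.94e-13), at the peak called on AL157871. The SLC25A22 row had no control peak under it, and its knockdown peak was below the carriers' median (3.16-fold).

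Cofactor carriers split. Both rows of SLC25A51 were higher in the authors' deposited table (0.34 and 0.62), and both lie in SHB. A row listed under TMX2P1, which overlaps peaks called on SLC25A51 and on TMX2P1, was lower in the authors' deposited table (−0.55, adjusted p = 0.000794), so SLC25A51 counts among the carriers with higher m6A only through SHB. Lower values stood in the authors' deposited table for SLC25A32, a folate and flavin carrier, at chr8:103400011-103400521 (3′ UTR, −0.53, adjusted p = 1.58e-15). A second SLC25A32 row lay at nearly the same place (−0.52). Both rows overlap peaks called on SLC25A32 and on an unnamed gene, and they describe 1 stretch. SLC25A16, tied to coenzyme A in mitochondria, was lower in the authors' deposited table too (3′ UTR, −0.66, adjusted p = 2.51e-06), with 4.81-fold enrichment in controls and no knockdown peak.

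The calcium-regulated ATP-Mg/phosphate carriers had either slightly higher or lower m6A. In the authors' deposited table SLC25A23 had 0.20 and SLC25A25 had 0.13, both at 3′ UTR peaks found in both lists (adjusted p = 0.00372 and 0.0204), the smallest differences among carriers. The listed enrichments of the SLC25A23 peak, 6.75-fold in controls and 6.67-fold after knockdown, went the other way. The highest under the SLC25A25 row were 6.26 and 7.62-fold, and other SLC25A25 peaks under it had 2.44 and 3.50-fold. SLC25A24 had −0.65 and −0.71 there, in 2 overlapping rows of the authors' deposited table at its 5′ end (adjusted p = 0.0437 and 0.0339), where AL359258 runs on the opposite strand. Most of the peaks under these rows were called on AL359258, with 11.5 and 13.4-fold enrichment in controls and 5.43 and 6.06-fold after knockdown.

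Outside these groups the authors' deposited table gave SLC25A39 the largest carrier difference, 1.46 at chr17:44324143-44324332 (5′ UTR, adjusted p = 0.00389). SLC25A11, the oxoglutarate carrier of the malate-aspartate shuttle, had 0.29 in the authors' deposited table (3′ UTR, adjusted p = 1.95e-06), with 4.52-fold enrichment in controls and 8.04-fold after knockdown. SLC25A45 stood at 0.68 in the authors' deposited table (3′ UTR, adjusted p = 0.000138). The highest enrichments under this row were 5.15-fold in controls and 9.50-fold after knockdown. Other SLC25A45 peaks under it had 4.16-fold in controls and 4.09-fold after knockdown. SLC25A48 had the lowest value of the authors' deposited table for a carrier, −0.93 (3′ UTR, adjusted p = 0.000776), with 9.42-fold enrichment in controls and no knockdown peak.

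**Figure D2:**
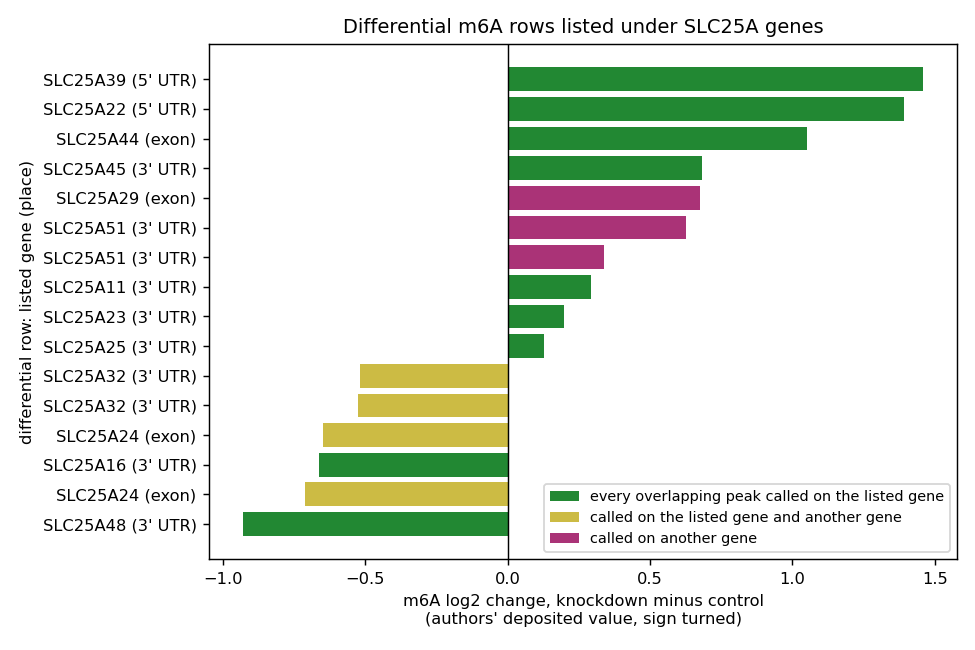
Log2 difference in m6A (knockdown minus control, the authors' deposited values) for 16 differential peak rows of 13 carriers; each bar is 1 row, coloured by whether the peaks under it were called on the listed gene. The bars run from −0.93 at SLC25A48 to 1.46 at SLC25A39, with 10 to the right of 0 and 6 to the left.

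By place, all 3 rows in 5′ UTRs, SLC25A22 and SLC25A39 among them, were higher and had a peak under them after knockdown only, while 3′ UTR rows were higher in 6 cases and lower in 4. Over all genes 65.5% of 1251 rows of the authors' deposited table in 5′ UTRs were higher. Restricted to rows called on the listed gene, 8 carriers were higher (among them SLC25A11, SLC25A22, SLC25A23, SLC25A25, SLC25A39, SLC25A44 and SLC25A45) and 2 lower (SLC25A16 and SLC25A48), each by 1 row; of all 6067 rows called on their listed gene 55.6% were higher.

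Peaks over transcript starts can be set beside the RNA there, since RefSeq start windows (GRCh38.p14) are at hand for 30 of the 37 carriers. In 7 windows a peak called on the gene covered some of the first transcribed bases. Stretches of 30 bases from 4 of them are shown because SLC25A22 gained its differential peak there, SLC25A27 (a relative of the uncoupling proteins) had its peak in controls only, and SLC25A44 and SLC25A38 (the glycine carrier of haem synthesis) had peaks in both lists, the control peak covering 20 of the 30 bases of SLC25A38. Capitals mark 1 of the 4 m6A core motifs searched, which were GGAC with its variant GAAC, and besides them AGAC with its variant AAAC.
SLC25A22: gagtgctgggctggagtgtggaagagccat
SLC25A27: gtaaggggcagctGGACcactccagctggg
SLC25A44: atggaggaagatgcgaccggcAGACggcat
SLC25A38: tccaccccgggatacacaGAACctcatctc
These lie at chr11:796209-796238 (minus strand), chr6:46652995-46653024 (plus), chr1:156194124-156194153 (plus) and chr3:39383390-39383419 (plus). The SLC25A22 stretch holds no capitals: none of the 4 motifs was in the first 50 transcribed bases of that start. Any of the 4 motifs was on the transcribed strand in 4 of the 7 windows under a peak, in 26 of all 51 carrier windows (51.0%) and in 48.7% of 35116 windows of all genes, and on the opposite strand in 48.5% of the latter. A match is a description of these letters and not a methylated site.

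Expression was tested for 13 carriers with a mean of at least 1 FPKM, on log2(FPKM + 1), a scale that understates changes of low genes. Of these, 4 rose after knockdown (SLC25A44, SLC25A25 and SLC25A32 among them), 3 fell (SLC25A29, SLC25A39 and SLC25A22) and 6 did not pass (limma, Benjamini-Hochberg adjusted p under 0.05 over all 4515 genes tested). Among all tested genes 62.4% were called, 24.5% higher and 37.9% lower, so 7 of 13 is near the background. The FPKM of control and knockdown libraries did not overlap for 8 of 13 carriers, against 67.8% of all genes. The median log2 difference was −0.036 over the carriers and −0.069 over all genes, and the median size regardless of sign was 0.16 and 0.22. In bulk RNA, fewer cells of a kind and less RNA per cell cannot be told apart.

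**Figure D3:**
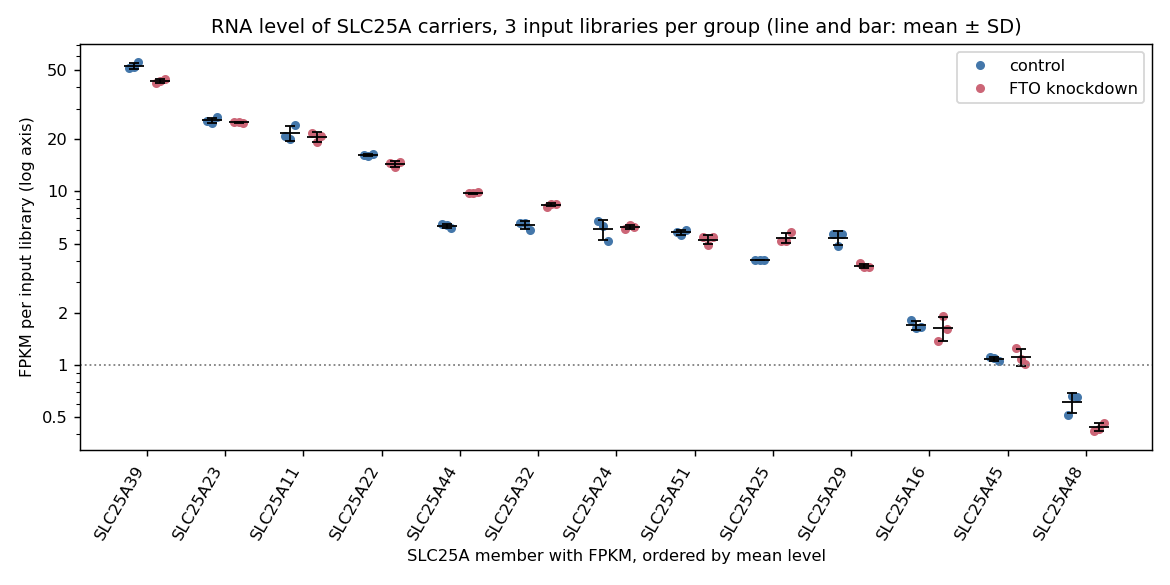
FPKM (log axis) of 13 carriers with expression values in the 3 control and 3 FTO knockdown input libraries; each point is 1 library, lines and bars give the mean ± SD, and the dotted line is the minimum mean of 1 FPKM for a test. SLC25A39 is highest in every library (42.1 to 55.4 FPKM), and SLC25A44 shows the widest relative gap, with all knockdown points at or above 9.74 FPKM and all control points at or below 6.49.

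Amino acid carriers moved in both directions. SLC25A44 stood at 6.49, 6.39 and 6.13 FPKM in controls and at 9.74, 9.77 and 9.87 FPKM after knockdown. Every knockdown library was above every control library, a 1.55-fold higher mean and the largest difference among the carriers (log2 0.56 ± 0.040 SE, limma, adjusted p = 3.02e-05). SLC25A29 fell from 5.66, 4.84 and 5.72 FPKM to 3.85, 3.66 and 3.69 FPKM, with no overlap between groups (log2 −0.43 ± 0.063 SE, limma, adjusted p = 0.000623). Its 3′ end overlaps AL157871 of the opposite strand, and whether strand was used in counting is not given in the sources used here. SLC25A22 was 16.3, 16.0 and 16.4 FPKM in controls and 14.7, 13.8 and 14.8 FPKM after knockdown. Its groups did not overlap either, but the difference was small (log2 −0.16 ± 0.041 SE, limma, adjusted p = 0.00934) and with every library centred on its median it did not pass (−0.069, adjusted p = 0.216).

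Of the cofactor carriers, SLC25A32 had 6.62, 6.58 and 6.03 FPKM in the control libraries and 8.18, 8.44 and 8.48 FPKM in the knockdown ones (log2 0.34 ± 0.047 SE, limma, adjusted p = 0.000505). All knockdown libraries of SLC25A32 lay above all control libraries. SLC25A51 had 5.81, 5.60 and 6.001 FPKM in controls and 5.44, 4.93 and 5.49 FPKM after knockdown; the groups did not overlap, yet the difference did not pass (log2 −0.11 ± 0.051 SE, limma, adjusted p = 0.0840). SLC25A16, at 1.70 ± 0.0985 and 1.64 ± 0.263 FPKM (SD, n = 3), overlapped between groups.

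Among the ATP-Mg/phosphate carriers SLC25A25 rose, from 4.05, 4.01 and 4.03 FPKM to 5.19, 5.17 and 5.81 FPKM (log2 0.34 ± 0.052 SE, limma, adjusted p = 0.000764). The control libraries of SLC25A25 agreed closely, and 1 of the knockdown libraries stood above the others. SLC25A23, the second most abundant carrier measured, was at 25.7 ± 0.962 and 25.04 ± 0.226 FPKM (SD, n = 3), and SLC25A24 at 6.09 ± 0.799 and 6.24 ± 0.170 FPKM. Neither of these relatives passed (limma, adjusted p = 0.455 and 0.702), and both overlapped between groups.

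SLC25A39 was the most abundant carrier measured, and of the iron and glutathione carriers the one with expression values. It stood at 51.4, 52.1 and 55.4 FPKM in controls and at 42.1, 43.1 and 44.3 FPKM after knockdown. The groups did not overlap, with a 1.23-fold lower mean after knockdown (log2 −0.29 ± 0.043 SE, limma, adjusted p = 0.000741), although the authors' deposited table gave its expression difference a q-value of 0.171. SLC25A11, the third in abundance, stood at 21.7 ± 2.12 and 20.6 ± 1.27 FPKM (SD, n = 3; limma, adjusted p = 0.436), and SLC25A45 at 1.08 ± 0.0303 and 1.11 ± 0.122 FPKM (adjusted p = 0.804), with overlapping groups in both. SLC25A48 was too low to be tested, at 0.515, 0.659 and 0.655 FPKM in controls and at 0.420, 0.430 and 0.465 FPKM in knockdown libraries. Its groups did not overlap, and with no filter on low genes limma gave −0.16 (adjusted p = 0.0263).

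The balance of directions moved with the scaling of libraries. As deposited, 39.3% of called genes were higher after knockdown, with quantile normalization 52.5% and with every library centred on its median 55.4%. The carriers split 4 higher and 3 lower as deposited, 5 and 4 with quantile normalization and 4 and 2 with centring. The rise of SLC25A44, SLC25A25 and SLC25A32 and the fall of SLC25A29 and SLC25A39 passed under all 3 scalings.

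Set side by side, the directions of m6A and RNA were mixed. Of the 10 carriers with higher m6A, 3 rose (SLC25A25 and SLC25A44 among them), 3 fell (SLC25A22, SLC25A29 and SLC25A39) and 4 did not pass (SLC25A11, SLC25A23, SLC25A45 and SLC25A51). Among the 4 with lower m6A, SLC25A32 rose, SLC25A16 and SLC25A24 did not pass and SLC25A48 was not tested. The 2 largest m6A differences, at SLC25A39 and SLC25A22, stood with lower RNA, and the third, at SLC25A44, with the largest rise of RNA. That SLC25A44 row is at a weakly enriched exonic peak (1.67-fold in controls and 3.22-fold after knockdown). More enriched SLC25A44 peaks, of 5.84-fold in controls and 5.80-fold after knockdown, had no differential row, but they are not a matched pair. The control peak covered 1167 exonic bases and the knockdown peak 329. That control peak also overlapped a 4.26-fold knockdown peak called on SLC25A44 and listed under PMF1-BGLAP. Input libraries enter both measures, since peaks are enrichments over input, and the authors' deposited m6A values of SLC25A29 and SLC25A51 belong to peaks called on other genes. The rows of SLC25A24 and SLC25A32, counted here as lower, overlap peaks called on the carrier and peaks called on another gene.

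**Figure D4:**
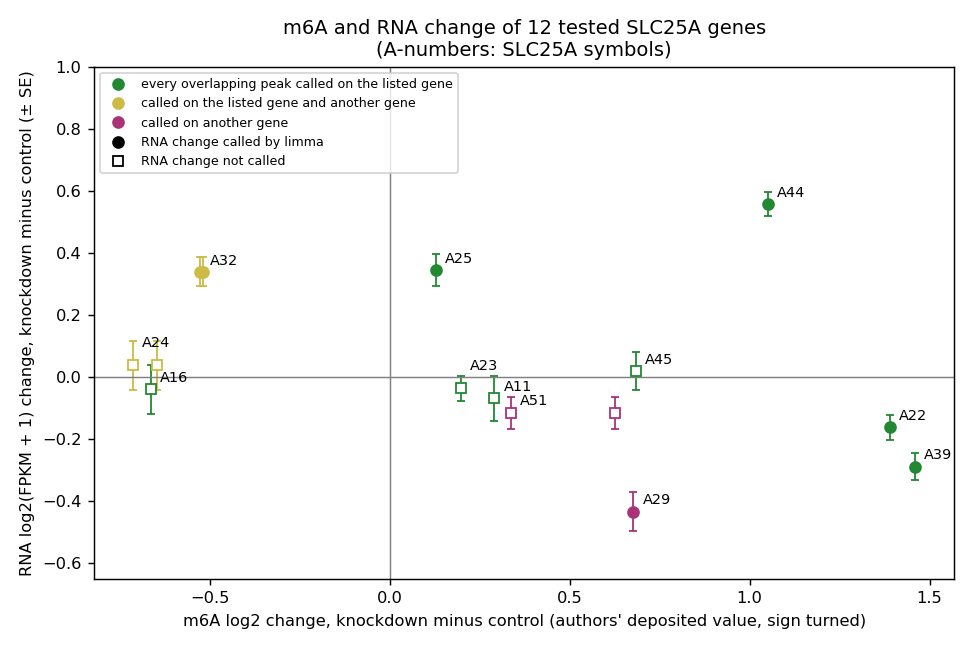
Log2 difference in m6A (x axis, the authors' deposited values) against the log2 difference in expression on the log2(FPKM + 1) scale (y axis), both knockdown minus control; each point is 1 differential peak row of 12 carriers tested for expression, bars are SE of the expression difference, circles passed in limma and squares did not. SLC25A39 and SLC25A22 lie at the lower right, SLC25A44 at the upper right (1.05 and 0.56) and SLC25A32 at the upper left.

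Genes around the carriers were taken from 4 lists with 57 genes, of which 15 could be tested: 6 rose, 6 fell and 3 did not pass, where 62.4% of all tested genes were called, 24.5% higher and 37.9% lower. The counts were 9 higher and 6 lower with median-centring and 8 and 6 with quantile normalization. With so few genes tested per list, the counts below are read as a description beside those shares. Of 13 genes for carrier import 5 were tested, 3 rose and 1 fell (24.5% and 37.9% of all tested genes). TIMM13, a small Tim chaperone, had 10.3 ± 0.940 FPKM in controls and 16.1 ± 0.413 after knockdown (SD, n = 3), a rise that passed in limma (adjusted p = 0.000116). TOMM22, a receptor of the outer membrane pore, rose from 22.6 ± 1.31 to 31.8 ± 1.14 FPKM (limma, adjusted p = 0.000149), and TIMM9, another small Tim chaperone, fell from 10.6 ± 0.488 to 7.95 ± 0.468 FPKM (limma, adjusted p = 0.000555). In the authors' deposited table the expression difference of TIMM9 had a q-value of 0.141 and did not pass.

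Of 17 other mitochondrial transporters 6 were tested, 3 rose and 2 fell, against 24.5% and 37.9% of all tested genes. SFXN5, a sideroflexin, went from 1.28 ± 0.0923 up to 2.70 ± 0.137 FPKM (SD, n = 3; adjusted p = 4.58e-05 in limma). LETM1, an inner membrane ion exchanger, had 15.1 ± 0.538 and 18.1 ± 1.14 FPKM (limma, adjusted p = 0.00489). ABCB6, a porphyrin transporter, fell from 12.6 ± 1.03 to 8.12 ± 0.992 FPKM (limma, adjusted p = 0.000761). Of 22 enzymes that use carried substrates 4 were tested and 3 fell, where 37.9% of all tested genes did: IDH2, which makes oxoglutarate, from 41.6 ± 1.51 to 24.5 ± 0.615 FPKM (limma, adjusted p = 1.28e-05), SHMT2 of the folate cycle from 131 ± 10.5 to 95.3 ± 2.97 FPKM (0.000421) and CPT2 of fatty acid oxidation from 3.03 ± 0.139 to 2.30 ± 0.0267 FPKM (0.00138). Of the 5 family members under other symbols UCP3 alone had values, at 0.172 ± 0.0584 and 0.151 ± 0.0290 FPKM, below the limit for a test.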

How the data were processed

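Peak lists, 1 per condition, and a table of differential peaks with FPKM of the 6 input libraries were used. In the peak lists the authors deposited a fold enrichment ratio of IP over input and, as scores without a lower bound, the log10 of p-values and adjusted p-values, per the file headers; the differential table holds the authors' deposited log2 fold changes, p-values and q-values, and FPKM. The submitters' processing notes name Bowtie 0.12.2, HISAT2 2.0 and StringTie 1.3.0 without roles, and mm8, a mouse build; positions here are those of the files, whose gene identifiers are human, and 88 of 89 carrier peaks called on their listed gene touched its RefSeq span in GRCh38.p14. The peak caller is not given in the sources used here. Listed starts lie 1 base before the first block of the peak, so widths exceed the exonic length by 1 in 1-block peaks. Depth is unknown, because only FPKM are held (smallest value above 0, 7.49e-07), and no interval on a level was computed.

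Of 8970 differential rows, 283 with no gene name and a p over 1 were left out, and 3 repeated rows were dropped from the knockdown list. Expression was fitted with limma 3.58.1 in R 4.3.3 (empirical Bayes with trend, two-sided) on log2(FPKM + 1) for genes averaging 1 FPKM or more, with Benjamini-Hochberg adjustment over all of them and a threshold of 0.05; the procedure was tested on simulated data. Peaks were compared with bedtools 2.31.1 by at least 1 shared base of their blocks. Named were FTO, every called carrier, every carrier with a differential peak, the 3 highest in FPKM, the ADP/ATP, phosphate, iron and glutathione carriers, the 3 highest peaks per list and up to 3 called genes per related list. Of the carriers, 1 enters the counts and is not otherwise reported here. The members and the lists were chosen with earlier results of these data known. Alternatives were another pseudocount, other filters, quantile normalization, median-centring, a replicate block, no trend, leaving out each library, the authors' q-values, and stricter peak and overlap limits.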

Additional observations from a re-analysis of the deposited data

How the results depend on the processing

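By the authors' q-values 1 carrier fell in place of 3, since SLC25A39 (0.171) and SLC25A22 (0.878) did not pass, and over all tested genes these gave 1364 higher and 845 lower calls against 1107 and 1712; a minimum of 5 FPKM gave 830 and 773. Each fit without 1 library called 4 carriers higher and 3 lower, and 6 and 6 related genes. For related genes the authors' q-values gave 8 higher and 5 lower, TIMM9 being one that no longer passed. Carriers that had not passed changed sign: SLC25A11 with median-centring (0.024) and over the left-out libraries (−0.12 to 0.0054), SLC25A16 with quantile normalization (0.14), median-centring (0.053) and over left-out libraries (−0.11 to 0.032), SLC25A23 with median-centring (0.056), and over left-out libraries SLC25A24 (−0.055 to 0.11) and SLC25A45 (−0.026 to 0.055); the cause was not tested. With quantile normalization SLC25A45 (0.21, adjusted p = 0.0179) and SLC25A23 (−0.11, adjusted p = 0.0423) passed in limma. With an absolute log2 of at least 1, 3 carriers had higher and 0 lower m6A in the authors' deposited table. An adjusted p of at most 1e-05 raised the overlapping share of control peaks from 67.2% to 84.8%, a 50% reciprocal overlap lowered it to 50% and that of knockdown peaks from 87.0% to 61.1%, and 33 of 54 knockdown peaks had at least 4-fold enrichment. Replicate numbers did not pair libraries (correlations of −0.077, 0.028 and 0.025), and the fit with a replicate block called 4 carriers higher and 3 lower.

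Without depth, low genes such as SLC25A48 and SLC25A45 cannot be given a counting error. With 1 peak list per condition, absence of a peak is absence from a list. Carriers without a differential peak had no expression value here.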

Other observations

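Antisense genes of carriers held strong peaks of their own. SLC25A5-AS1, listed opposite the translocase gene SLC25A5, had a peak at chrX:119467960-119468380 with 55.7-fold enrichment in controls, about which the knockdown list held 2 shorter peaks of 8.09 and 17.5-fold. SLC25A5 itself had no peak in either list. SLC25A25-AS1 had a peak at chr9:128114006-128115141 whose log2 difference in the authors' deposited table was 0.995 (knockdown minus control), with 7.76-fold enrichment in controls and 26.4-fold after knockdown. Its FPKM were 0.783, 0.771 and 0.722 in controls and 0.919, 0.734 and 0.994 after knockdown, with overlapping groups. Whether the counting used strand is not given in the sources used here, so reads of a carrier and of its antisense gene cannot be told apart where they overlap. These genes were chosen after their values were seen.

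Differential rows listed under neighbours but overlapping peaks called on carriers added values that the carriers' own entries leave out. In the authors' deposited table a row at chr1:108199774-108200044, called on SLC25A24 and listed under AL359258, had a log2 difference of 1.90. Its enrichment was 2.85-fold in controls and 19.1-fold after knockdown, and its sign was opposite to that of the rows listed under SLC25A24. This row is labelled 3′ UTR but lies close to the 5′ UTR peak of SLC25A24 at chr1:108200520-108200730. The 3′ UTR peak listed under SLC25A24 is far away, at chr1:108136525-108136795. A 3′ UTR peak called on SLC25A53 and listed under TMSB15B had 1.22 in the authors' deposited table (3.46 and 19.0-fold), while the exonic peak listed under SLC25A53 went from 28.3 to 10.8-fold. A row placed in the exon of TMX2P1, overlapping peaks called on SLC25A51 and on TMX2P1, had −0.55 in the authors' deposited table. Its sign was opposite to that of the rows listed under SLC25A51. The longer peaks called on SLC25A51 there had 12.1-fold enrichment in controls and 10.6-fold after knockdown. Of the carriers outside the 37, the authors' deposited table gave SLC25A30 0.305, SLC25A33 −0.51 and SLC25A15 −0.76.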
